A study of Mus musculus with 15 samples.

Results

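The genes described here encode the collagens, the laminins and 15 further proteins of the extracellular matrix, the mesh of secreted proteins that surrounds cells. Members were taken by symbol from a table of read counts per gene: every collagen chain gene (44 rows), every laminin chain gene (11 rows), and Fn1, Postn, Sparc, Nid1, Nid2, Hspg2, Agrn, Fbn1, Fbn2, Eln, Lum, Dcn, Tnc, Thbs1 and Vcan (15 rows). This gave 70 members of 24034 genes in the table. By the structure that their proteins build, 23 were placed with the basement membrane, 11 with the fibrillar collagens and 36 with other collagens and matrix proteins. A filter on low counts left 55 members for testing: 19 of the basement membrane, 10 fibrillar and 26 other.

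RNA sequencing had been done on 15 libraries of differentiated mouse embryonic stem cells that carried LacZ, the bacterial beta-galactosidase gene, under control elements of Endoglin (Eng), a co-receptor for TGF-beta ligands in endothelial and early blood-forming cells. A line with the Eng promoter and its −8 kb enhancer gave 3 sorted groups that the labels call HEI, a term they do not spell out. These were ENG+FDG+, ENG−FDG+ and ENG+FDG− cells, where ENG is the surface protein and FDG a substrate that becomes fluorescent when the reporter enzyme cuts it. A second line, with the promoter and the enhancers at −8, +7 and +9 kb, gave FLK1+ cells, which carry the VEGF receptor encoded by Kdr, sorted as LacZ+ and LacZ−. All 5 groups thus carried a reporter with the promoter and the −8 kb enhancer, and each had 3 libraries, numbered 1 to 3. The labels name no separate cultures or clones, so p-values measure the spread between these libraries. Because every HEI library came from the first line and every FLK1+ library from the second, the sorted stage and the reporter line cannot be told apart.

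Basement membranes are thin sheets under endothelium and epithelium, in which a laminin network and a collagen IV network are joined by nidogens and the heparan sulfate proteoglycan perlecan. Fibrillar collagens assemble into the fibres of connective tissue and are made mainly by mesenchymal cells, while FACIT collagens decorate or link those fibres. Fibronectin, fibrillins and the matricellular proteins (thrombospondin, tenascin, periostin, SPARC) carry signals to cells and hold growth factors in the matrix, and endothelial cells lay down much of the matrix of young vessels.

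Library totals ran from 9673396 to 16337785 counts. Levels are given as CPM, the counts per 1000000 counts of a library after scaling between libraries, in the order of replicates 1, 2 and 3. Endothelial markers (10 of 10 detected) summed to 2588 to 7000 CPM in the HEI libraries and to 471 to 816 CPM in the FLK1+ libraries, while pluripotency markers (6 genes) summed to 0.130 to 3.56 CPM in HEI libraries and to 179 to 604 CPM in FLK1+ libraries. Eng itself measured 904, 180.2 and 186 CPM in HEI ENG+FDG+ cells, 161, 39.4 and 45.1 CPM in ENG−FDG+ cells and 962, 184 and 218 CPM in ENG+FDG− cells, so that within each replicate number the ENG+ fractions were higher, and 20.5 to 85.2 CPM in FLK1+ cells. The 5 replicate 1 libraries stood apart from the rest. With the replicate number as a term of the model, 30 of 55 members (54.5%) differed between replicate 1 and the other 2 numbers. This was a smaller share than the 70.3% of all genes tested. Of the 30, 27 were higher and 3 lower in replicate 1, and the split by direction over all genes is not given here. Lama5 averaged 146 CPM in the replicate 1 libraries against 23.8 CPM in replicate 2 and 28.1 CPM in replicate 3, and Hspg2 averaged 1308 CPM against 230.0 and 279 CPM. Of these 5, HEI ENG−FDG+ replicate 1 also had a sum of 4172 CPM over 10 smooth muscle and mesenchyme markers, against 261 and 565 CPM in replicates 2 and 3 of its group and 94.9 to 542 CPM in the ENG+ HEI libraries. In bulk samples such as these, fewer cells of a type and less RNA per cell cannot be told apart.

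Matrix genes tended to take a larger share of the counts in HEI than in FLK1+ libraries, a description with no test. The 70 members together held 1.02% to 2.06% of the counts of HEI libraries (median 1.38%, n = 9) and 0.718% to 1.06% of those of FLK1+ libraries (median 0.855%, n = 6), so the ranges overlapped slightly. Fn1, which encodes fibronectin, the adhesive glycoprotein that early vessels need, held a large part of this by itself, with 0.508% to 0.580% of counts in HEI and 0.419% to 0.734% in FLK1+ libraries. Without Fn1 the share was 0.479% to 1.5% in HEI and 0.260% to 0.403% in FLK1+ libraries, and the ranges did not overlap. The basement membrane genes held 0.212% to 0.869% in HEI and 0.0990% to 0.217% in FLK1+ libraries, which touched at 1 library each (ENG−FDG+ replicate 2 and LacZ+ replicate 1), and replicate 1 held the highest share of each group. Fibrillar collagen genes held far less, 0.0109% to 0.124% in HEI and 0.0136% to 0.0268% in FLK1+ libraries.

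**Figure D1:**
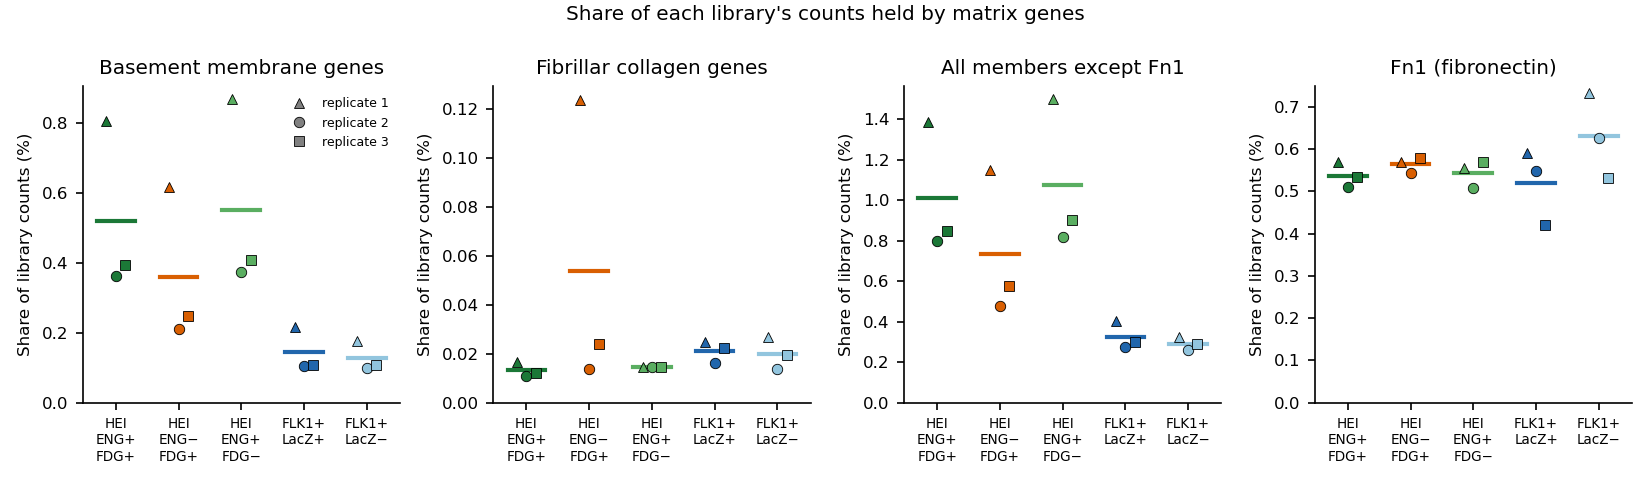
Share of each library's counts (%, y axis) held by basement membrane genes, fibrillar collagen genes, all members except Fn1, and Fn1, in the 5 sorted groups (x axis); symbols are the replicate numbers and bars the group means. The share without Fn1 lies between 0.479% and 1.5% in HEI libraries and between 0.260% and 0.403% in FLK1+ libraries, and the highest fibrillar share, 0.124%, is that of HEI ENG−FDG+ replicate 1.

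Levels between genes were compared per kilobase of merged exons. Fn1 and Sparc, which encodes SPARC, a collagen-binding matricellular protein, held the highest levels, and their order differed between the sorted cells. Sparc measured 583 to 900.1 CPM per kb in the 6 ENG+ HEI libraries, where Fn1 measured 418 to 484 CPM per kb. In the 3 ENG−FDG+ libraries Sparc measured 336 to 577 and Fn1 478 to 503 CPM per kb, and in the FLK1+ libraries Sparc measured 143 to 221 and Fn1 387 to 609 CPM per kb. Sparc was thus the higher in all 6 ENG+ HEI libraries and Fn1 in all 6 FLK1+ libraries. Fbn1, which encodes fibrillin-1, the backbone of microfibrils, had 45.2 to 137 CPM per kb in HEI and 3.64 to 7.80 CPM per kb in FLK1+ libraries.

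In the basement membrane Col4a1 or Nid1 held the highest level in each HEI library, with 62.8 to 278 CPM per kb for Col4a1 and 56.8 to 142 CPM per kb for Nid1. In FLK1+ libraries Col4a1 measured 15 to 34.8 and Nid1 6.38 to 20.4 CPM per kb, and Nid2, with 17.8 to 37.5 CPM per kb, was the highest of the class in 4 of the 6. Among the fibrillar collagens Col5a2 was the highest in 5 of the 6 ENG+ HEI libraries, with 4.39 to 6.07 CPM per kb, where Col1a1 measured 0.515 to 3.05 CPM per kb. Col1a1 was the highest in 5 of the 6 FLK1+ libraries, with 9.10 to 24.1 CPM per kb. In ENG−FDG+ cells it measured 88.4 CPM per kb in replicate 1 and 2.59 and 5.61 CPM per kb in replicates 2 and 3. That library set the mean of Col1a1 over all 15, which was 12.8 CPM per kb with it and 7.40 CPM per kb without it, and that of Col1a2, 4.31 with it and 2.80 CPM per kb without it.

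The first comparison averaged the 3 HEI groups and set them against the average of both FLK1+ groups. Of 55 members, 34 passed an adjusted p of 0.05 in edgeR's quasi-likelihood test, 18 higher and 16 lower in HEI cells, where 37.3% of all 13662 genes tested passed (17% higher, 20.3% lower). With the replicate number as a block 42 passed, 21 in each direction, against 66.2% of all genes (28.8% higher, 37.4% lower), and the 34 were among them with the same sign. Replicates 2 and 3 alone, fitted with the block, gave 44 of 53 members against 74.2% of all genes, again including the 34. The classes differed in direction. In the basement membrane 8 rose and 1 fell, with a median log2 difference of 0.84 over its 19 tested members, in the fibrillar class 3 rose and 4 fell (median −1.04 over 10), and among the others 7 rose and 11 fell (median −0.87 over 26), where the median over all genes was −0.11. The median size of the difference, regardless of sign, was 1.89 on the log2 scale over the members and 0.56 over all genes. In 23 members the 9 HEI and 6 FLK1+ libraries did not overlap (14 higher, 9 lower in HEI), 41.8% of those tested, where 18.2% of all genes did not overlap.

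**Figure D2:**
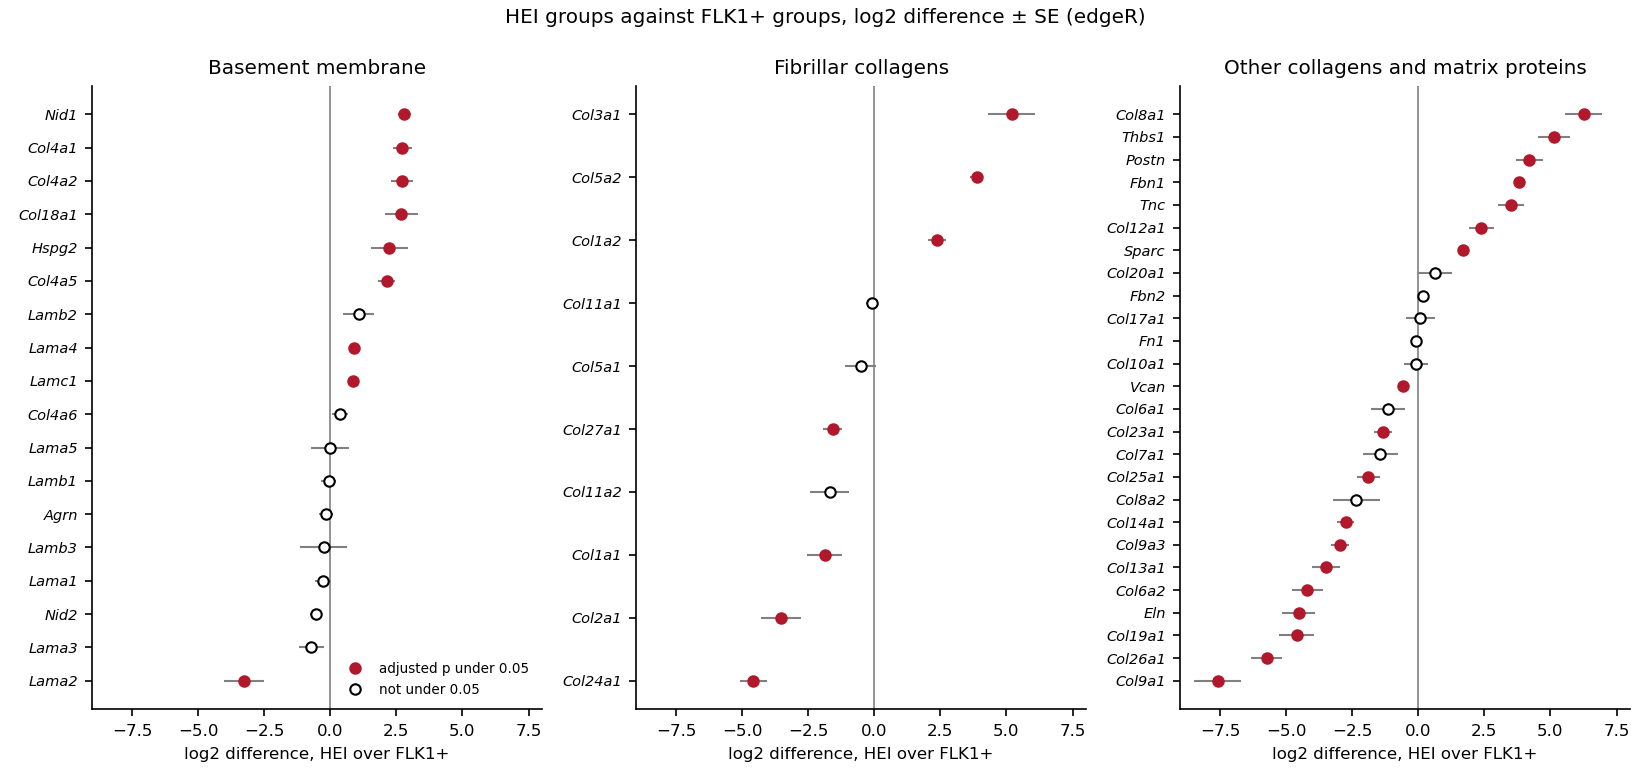
Log2 difference of 54 of the 55 tested members, HEI groups over FLK1+ groups (x axis), with its standard error as a bar, in 3 panels by class; filled points have an adjusted p under 0.05 in edgeR's quasi-likelihood test. Col4a1, Col4a2, Nid1, Hspg2 and Col18a1 stand together at the top of the basement membrane panel, while chains of 1 fibrillar collagen type, such as Col1a1 and Col1a2, lie on opposite sides of 0.

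The main collagen IV chains, Col4a1 and Col4a2, which form the network of nearly all basement membranes, rose together. Col4a1 measured 1808, 773 and 885 CPM in HEI ENG+FDG+ cells, 1195, 469 and 541 CPM in ENG−FDG+ cells and 2074, 864 and 939 CPM in ENG+FDG− cells, against 260.0, 119 and 142 CPM in FLK1+ LacZ+ cells and 199.6, 113 and 112 CPM in LacZ− cells. Every HEI library lay above every FLK1+ library, and replicate 1 was the highest library of each group. The log2 difference was 2.72 ± 0.36 (SE), or 6.58-fold (adjusted p = 7.32e-05, edgeR). Col4a2 measured 1434, 536 and 598 CPM in HEI ENG+FDG+, 974, 309.5 and 364 CPM in ENG−FDG+ and 1564, 581 and 653 CPM in ENG+FDG− cells, against 214, 86.8 and 91.8 CPM in LacZ+ and 153, 78.0 and 81.6 CPM in LacZ− cells, a log2 difference of 2.70 ± 0.42 (adjusted p = 0.000254). The ratio of Col4a1 to Col4a2 in CPM per kb stayed between 1.08 and 1.37 in all 15 libraries, while Col4a1 itself spanned 112 to 2074 CPM. Within that range it was lowest in replicate 1 of every group (1.08 to 1.18, against 1.22 to 1.37 in replicates 2 and 3). Such ratios of partner genes are given as descriptions, with no test.

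Col4a1 and Col4a2 lie head to head on chromosome 8, and Col4a5 and Col4a6, the chains of a collagen IV found in smooth muscle and some epithelia (Col4a5 also in kidney glomeruli), lie head to head on chromosome X. Their promoter windows are shown because both chains of the first pair rose and only Col4a5 of the second passed the test. Each window runs from 250 bases before to 50 bases after the RefSeq start site (build GRCm38.p6), written 5′ to 3′ on the gene's strand. Capitals mark matches, on both strands, to a CCAAT box (CCAAT or ATTGG) and a GC box (GGGCGG or CCGCCC). The windows were also searched for TATAAA and TGACTCA with their reverse complements, and neither was found in these 4 windows.
Col4a1, chr8:11312777-11313076, minus strand: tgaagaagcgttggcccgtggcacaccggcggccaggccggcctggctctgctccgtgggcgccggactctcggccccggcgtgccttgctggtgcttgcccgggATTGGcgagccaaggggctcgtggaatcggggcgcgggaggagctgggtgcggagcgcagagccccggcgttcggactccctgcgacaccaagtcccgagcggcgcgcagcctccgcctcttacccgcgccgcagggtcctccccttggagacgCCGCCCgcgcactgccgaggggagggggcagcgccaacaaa
Col4a2, chr8:11312555-11312854, plus strand: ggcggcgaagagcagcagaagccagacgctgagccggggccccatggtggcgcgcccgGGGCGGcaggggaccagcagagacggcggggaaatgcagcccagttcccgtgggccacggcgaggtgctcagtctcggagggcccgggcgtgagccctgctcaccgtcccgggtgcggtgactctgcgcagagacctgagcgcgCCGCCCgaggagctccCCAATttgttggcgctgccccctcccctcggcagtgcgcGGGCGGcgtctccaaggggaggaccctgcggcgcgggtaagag
Col4a5, chrX:141475169-141475468, plus strand: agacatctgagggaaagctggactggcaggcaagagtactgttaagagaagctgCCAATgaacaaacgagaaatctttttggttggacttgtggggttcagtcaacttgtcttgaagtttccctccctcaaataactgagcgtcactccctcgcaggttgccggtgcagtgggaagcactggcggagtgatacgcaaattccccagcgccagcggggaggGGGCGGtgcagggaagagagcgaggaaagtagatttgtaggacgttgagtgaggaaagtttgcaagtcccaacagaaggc
Col4a6, chrX:141474027-141474326, minus strand: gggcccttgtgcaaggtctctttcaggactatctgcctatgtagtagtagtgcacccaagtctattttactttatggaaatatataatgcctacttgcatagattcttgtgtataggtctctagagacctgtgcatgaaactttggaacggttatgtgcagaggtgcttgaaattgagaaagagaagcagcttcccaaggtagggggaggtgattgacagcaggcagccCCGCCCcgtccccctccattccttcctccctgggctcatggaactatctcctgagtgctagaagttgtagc
The start sites of Col4a1 and Col4a2 were 21 bases apart and their windows shared 78 bases, while those of Col4a5 and Col4a6 were 1343 bases apart. The GC box after the start site of Col4a1 and the one after that of Col4a2 are the same 6 bases, chr8:11312812-11312817. In GC content the first pair stood at 74.0% and 73.7% and the second at 52.7% and 48.3%. A CCAAT box was in 3 of these 4 windows and a GC box in 4 of 4, where 37.4% and 35.7% of all 32851 windows of this length held one, TATAAA being in 13.6% and TGACTCA in 5.2%.

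Col4a5 rose and Col4a6 did not pass the test. Col4a5 measured 38.6, 62.3 and 51.4 CPM in HEI ENG+FDG+, 32.5, 38.4 and 30.9 CPM in ENG−FDG+ and 43.5, 65.7 and 58.7 CPM in ENG+FDG− cells, against 5.30, 14.3 and 17.1 CPM in LacZ+ and 3.72, 10.5 and 12.6 CPM in LacZ− cells (log2 difference 2.13 ± 0.32, adjusted p = 0.00016). Col4a6 measured 11.6, 11 and 9.24 CPM in HEI ENG+FDG+, 15.5, 6.83 and 4.77 CPM in ENG−FDG+ and 18.9, 8.64 and 6.93 CPM in ENG+FDG− cells, against 5.30, 9.20 and 8.93 CPM in LacZ+ and 7.99, 7.66 and 8.62 CPM in LacZ− cells (log2 difference 0.38 ± 0.30, adjusted p = 0.355). The Col4a5 libraries separated by stage and the Col4a6 libraries overlapped. Per kb the ratio of Col4a5 to Col4a6 was 2.48 to 10.1 in HEI and 0.552 to 2.28 in FLK1+ libraries. The remaining pair, Col4a3 and Col4a4, known from kidney and lung basement membranes, had too few counts to test: 77 reads of Col4a3 over the 9 HEI libraries, of which 68 were in ENG−FDG+ replicate 1, and 13 over the 6 FLK1+ libraries.

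**Figure D3:**
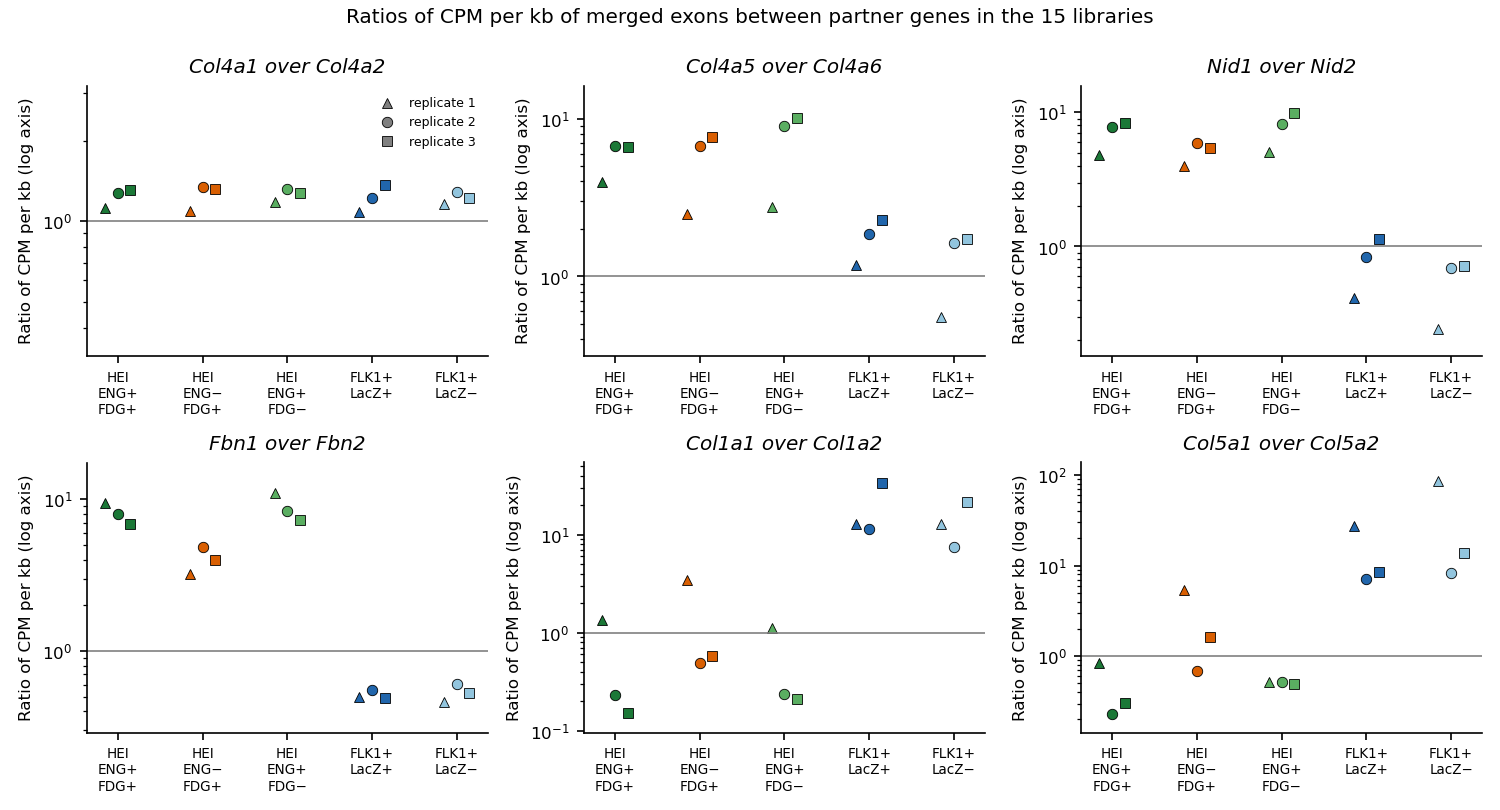
Ratio of the levels of 6 pairs of related genes in CPM per kb of merged exons (y axis, log scale) in each of the 15 libraries, by sorted group (x axis) and replicate number (symbol); the grey line marks equal levels. Col4a1 over Col4a2 stays between 1.08 and 1.37, while Nid1 over Nid2 and Fbn1 over Fbn2 are higher, and Col1a1 over Col1a2 and Col5a1 over Col5a2 lower, in every HEI library than in every FLK1+ library.

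Nidogens bridge laminin and collagen IV, and only Nid1 of the 2 nidogen genes rose. Nid1 measured 722, 837 and 915 CPM in HEI ENG+FDG+, 673, 395 and 464 CPM in ENG−FDG+ and 844, 908 and 986 CPM in ENG+FDG− cells, against 107, 123 and 142 CPM in LacZ+ and 44.3, 108 and 111 CPM in LacZ− cells. Every HEI library lay far above every FLK1+ library, and Nid1 rose by 2.80 ± 0.23 on the log2 scale (6.97-fold, adjusted p = 1.66e-06). Nid2 averaged 88.2 ± 26.7 CPM in HEI and 128 ± 35.4 CPM in FLK1+ libraries (SD, n = 9 and 6) and did not pass in the fit without the block (log2 difference −0.53 ± 0.23, adjusted p = 0.0906), but fell in the fit with it (−0.55 ± 0.11, adjusted p = 0.000472). The Nid1 to Nid2 ratio per kb was 3.99 to 9.84 in HEI and 0.243 to 1.15 in FLK1+ libraries.

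Perlecan and collagen XVIII, both of which carry heparan sulfate chains, differed strongly between replicate numbers. Hspg2, the gene of perlecan, measured 2147, 362 and 432 CPM in HEI ENG+FDG+, 1644, 227 and 266 CPM in ENG−FDG+ and 2056, 364 and 473 CPM in ENG+FDG− cells, against 319, 110.3 and 119 CPM in LacZ+ and 375, 86.8 and 103 CPM in LacZ− cells. It rose by 2.24 ± 0.69 log2 (adjusted p = 0.0218), and by 1.97 ± 0.13 with the block (adjusted p = 1.88e-08). Replicate 1 stood well above replicates 2 and 3 in every group, and the FLK1+ replicate 1 libraries overlapped HEI replicates 2 and 3. Col18a1, the collagen from which endostatin is cut, measured 720.2, 187 and 188 CPM in HEI ENG+FDG+, 408, 152 and 163 CPM in ENG−FDG+ and 804, 180.1 and 172 CPM in ENG+FDG− cells, against 184, 22.6 and 33.0 CPM in LacZ+ and 55.2, 16.7 and 21.7 CPM in LacZ− cells. Here too replicate 1 was the highest library of each group, and within each number the HEI libraries were above the FLK1+ libraries, although LacZ+ replicate 1 reached the range of HEI replicates 2 and 3. The log2 difference was 2.69 ± 0.64 (adjusted p = 0.00489), and its call was lost when all replicate 2 libraries (2.63, adjusted p = 0.052) or all replicate 3 libraries (2.71, adjusted p = 0.0659) were left out. Agrn, the gene of agrin, a heparan sulfate proteoglycan known from the neuromuscular junction, did not pass, with 95.7 ± 29.7 CPM in HEI and 107 ± 34.7 CPM in FLK1+ libraries (log2 difference −0.17 ± 0.25, adjusted p = 0.651).

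A laminin is a trimer of an alpha, a beta and a gamma chain. Among the alpha chains, Lama4, the chain of vessel walls, rose: it measured 122, 125 and 125 CPM in HEI ENG+FDG+, 82.4, 75.7 and 81.0 CPM in ENG−FDG+ and 166, 112 and 113 CPM in ENG+FDG− cells, against 44.3, 64.3 and 80.7 CPM in LacZ+ and 37.0, 57.9 and 67.6 CPM in LacZ− cells (log2 difference 0.90 ± 0.18, adjusted p = 0.00138). The ENG−FDG+ libraries overlapped the highest FLK1+ library, and the ENG+ libraries lay above it. Lama1, the chain of the earliest embryonic laminin, averaged 29.2 ± 30.0 CPM in HEI and 30.1 ± 3.90 CPM in FLK1+ libraries (adjusted p = 0.519), and Lama5, a chain common to many mature basement membranes, averaged 66.0 ± 55.1 CPM and 65.8 ± 70.4 CPM (adjusted p = 0.998). The HEI average of Lama1 included 108 CPM in ENG−FDG+ replicate 1. Without that library Lama1 was lower in HEI cells (log2 difference −0.60, adjusted p = 0.00503, edgeR). Lama2, the muscle chain, fell to 11 reads over the 9 HEI libraries, against 55 over the 6 FLK1+ libraries (adjusted p = 0.00444). Lama3, an epithelial chain, did not pass (adjusted p = 0.268).

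Lamc1, the gamma chain of most laminins, rose as well, with 362, 237 and 259 CPM in HEI ENG+FDG+, 415, 245 and 286 CPM in ENG−FDG+ and 386, 287 and 311 CPM in ENG+FDG− cells, against 198, 158 and 189 CPM in LacZ+ and 159, 151 and 180.1 CPM in LacZ− cells. The stages did not overlap, and the log2 difference was 0.84 ± 0.16 (adjusted p = 0.00121). Its usual partner Lamb1 stayed at 127 ± 63.6 CPM in HEI and 132 ± 21.1 CPM in FLK1+ libraries (log2 difference −0.06 ± 0.27, adjusted p = 0.883). Lamb2, the beta chain of kidney glomeruli and neuromuscular junctions, averaged 50.2 ± 43.8 CPM in HEI and 23.7 ± 16.7 CPM in FLK1+ libraries and passed in the fit with the block alone (log2 difference 0.97 ± 0.17, adjusted p = 0.000212). Lamb3, an epithelial beta chain, did not pass (adjusted p = 0.855).

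Extraembryonic endoderm also makes much basement membrane. Its 15 listed markers summed to 263 to 855 CPM in HEI and 252 to 362 CPM in FLK1+ libraries, and of the 9 that could be tested 5 rose and 2 fell. In this comparison 17% of all genes rose and 20.3% fell. Sox7 was the largest part of the sum in every HEI library, with 117 to 223 CPM. The median log2 difference of the 9 was 1.28. Among the 15, Ttr was at 0 in all 9 HEI libraries, Afp in the 6 ENG+ HEI and all 6 FLK1+ libraries, Hnf4a in the ENG−FDG+ and ENG+FDG− libraries, and Apoa1 and Amn in the ENG−FDG+ libraries. All 10 endothelial markers rose, among them Eng and Kdr, which encode surface proteins used for sorting. The part of these cells in the rise of the basement membrane genes was not tested, nor was that of endothelial cells.

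The fibrillar collagens did not move as a class, and the chains of 1 type could lie on opposite sides. Col1a1 and Col1a2 encode the chains of type I collagen, the main fibre of bone, skin and tendon. Col1a1 measured 20.0, 3.43 and 3.38 CPM in HEI ENG+FDG+, 580.5, 17.0 and 36.8 CPM in ENG−FDG+ and 14.7, 5.55 and 6.75 CPM in ENG+FDG− cells, against 80.7, 86.1 and 158 CPM in LacZ+ and 76.6, 59.7 and 111 CPM in LacZ− cells. Every HEI library lay below every FLK1+ library except ENG−FDG+ replicate 1, which was the highest of all 15. Col1a1 fell by 1.87 ± 0.66 log2 (adjusted p = 0.0415). The difference was −0.50 between the replicate 1 libraries, −3.35 between those of replicate 2 and −3.78 between those of replicate 3, and −3.51 in a fit of replicates 2 and 3 alone (adjusted p = 4.62e-16). Without ENG−FDG+ replicate 1 it was −2.85. The call was lost without any 1 of 10 of the 15 libraries (adjusted p 0.0528 to 0.0909), namely replicates 2 and 3 of both ENG+ HEI groups and of LacZ+ cells, replicate 3 of ENG−FDG+ cells and all 3 of LacZ− cells.

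Col1a2 went the other way. It measured 28.5, 28.1 and 41.9 CPM in HEI ENG+FDG+, 317, 66.2 and 121 CPM in ENG−FDG+ and 24.8, 44.8 and 60.4 CPM in ENG+FDG− cells, against 11.8, 14.3 and 8.83 CPM in LacZ+ and 11.3, 15.2 and 9.73 CPM in LacZ− cells, so that every HEI library exceeded every FLK1+ library. It rose by 2.39 ± 0.35 log2 (5.23-fold, adjusted p = 0.000137). Per kb the ratio of Col1a1 to Col1a2 was 0.153 to 3.47 in HEI and 7.42 to 33.9 in FLK1+ libraries, and its highest HEI value was again that of ENG−FDG+ replicate 1.

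In type V collagen, which starts fibrils and sets their width, 1 of the 2 chains tested rose. Col5a2 measured 54.2, 48.5 and 43.3 CPM in HEI ENG+FDG+, 50.1, 29.9 and 26.2 CPM in ENG−FDG+ and 58.2, 50.6 and 42.1 CPM in ENG+FDG− cells, against 4.15, 3.50 and 3.69 CPM in LacZ+ and 1.33, 3.32 and 2.50 CPM in LacZ− cells, with no overlap (log2 difference 3.88 ± 0.25, 14.7-fold, adjusted p = 2.09e-07). Col5a1 averaged 47.3 ± 73.0 CPM in HEI and 51.1 ± 38.7 CPM in FLK1+ libraries, and its difference of −0.51 ± 0.59 did not pass (adjusted p = 0.541). Col3a1, the fibrillar collagen of vessel walls and the neighbour of Col5a2 at 24.6 kb on chromosome 1, rose from a very low level, with 954 reads over the 9 HEI libraries against 13 over the 6 FLK1+ libraries (adjusted p = 0.000575). ENG−FDG+ replicate 1 alone held 562 of the HEI reads, which left 392 in the other 8 libraries, and without it the log2 difference was 4.42 (adjusted p = 0.000184).

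The fibrillar chains Col2a1, Col24a1 and Col27a1 fell. Col2a1, the main collagen of cartilage, had 130 reads over the 9 HEI libraries against 493 over the 6 FLK1+ libraries (adjusted p = 0.00259). Of the 130 reads 105 came from ENG−FDG+ replicate 1, and without that library, with 25 HEI reads, the log2 difference was −4.73 (adjusted p = 1.31e-05). Col24a1, a minor fibrillar collagen, had 36 reads against 464 (adjusted p = 1.75e-05). Col27a1, a fibrillar collagen of growing cartilage, measured 8.59, 6.95 and 5.96 CPM in HEI ENG+FDG+, 22.7, 4.42 and 4.60 CPM in ENG−FDG+ and 5.64, 5.99 and 5.72 CPM in ENG+FDG− cells, against 21.3, 16.3 and 18.7 CPM in LacZ+ and 44.4, 16.9 and 20.9 CPM in LacZ− cells. Only ENG−FDG+ replicate 1 reached the FLK1+ range, and Col27a1 fell by 1.57 ± 0.35 log2 (adjusted p = 0.00341), which was lost without the replicate 3 libraries (adjusted p = 0.0756). Col11a1 and Col11a2, chains of the cartilage collagen type XI, did not pass (adjusted p = 0.82 and 0.0917), and Col11a2 fell with the block (adjusted p = 0.00149).

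Among the other matrix genes, Fbn1 had the smallest adjusted p of all members. It measured 1475, 1203 and 1228 CPM in HEI ENG+FDG+, 548, 741 and 761 CPM in ENG−FDG+ and 1659.8, 1192 and 1275 CPM in ENG+FDG− cells, against 77.8, 89.0 and 94.6 CPM in LacZ+ and 44.2, 75.6 and 75.9 CPM in LacZ− cells. The lowest HEI library was far above the highest FLK1+ library, and Fbn1 rose by 3.83 ± 0.20 log2 (14.2-fold, adjusted p = 4.58e-08). Its paralog Fbn2, the fibrillin of embryonic tissue, averaged 177 ± 17.9 CPM in HEI and 159 ± 36.7 CPM in FLK1+ libraries (log2 difference 0.18 ± 0.13, adjusted p = 0.324; 0.18 ± 0.07 with the block, adjusted p = 0.0335). The Fbn1 to Fbn2 ratio per kb was 3.21 to 10.9 in HEI and 0.462 to 0.606 in FLK1+ libraries.

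The matricellular genes rose together. Thbs1, whose product thrombospondin-1 restrains vessel growth and activates latent TGF-beta, measured 218, 49.5 and 62.0 CPM in HEI ENG+FDG+, 314, 72.4 and 127 CPM in ENG−FDG+ and 264, 62.3 and 71.1 CPM in ENG+FDG− cells, against 7.73, 2.90 and 3.59 CPM in LacZ+ and 4.84, 1.94 and 2.41 CPM in LacZ− cells (log2 difference 5.14 ± 0.61, 35.2-fold, adjusted p = 2.88e-05). Tnc, which encodes tenascin-C, measured 240.5, 106 and 137 CPM in HEI ENG+FDG+, 269, 50.6 and 60.7 CPM in ENG−FDG+ and 274, 112 and 139 CPM in ENG+FDG− cells, against 27.7, 9.50 and 11.5 CPM in LacZ+ and 18.1, 5.81 and 9.36 CPM in LacZ− cells (3.51 ± 0.50, adjusted p = 0.00013). Neither gene overlapped between the stages, and both were highest in replicate 1 of each group. Sparc measured 3136, 2209 and 2287 CPM in HEI ENG+FDG+, 2187, 1273 and 1456 CPM in ENG−FDG+ and 3409, 2273 and 2656 CPM in ENG+FDG− cells, against 837, 698 and 804 CPM in LacZ+ and 541, 620.3 and 684 CPM in LacZ− cells (1.71 ± 0.19, adjusted p = 1.43e-05), again without overlap. Postn, the gene of periostin, a matricellular protein of heart valves, periosteum and other mesenchyme, rose by 4.20 ± 0.50 (adjusted p = 3.12e-05), with values given further on for the HEI fractions.

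**Figure D4:**
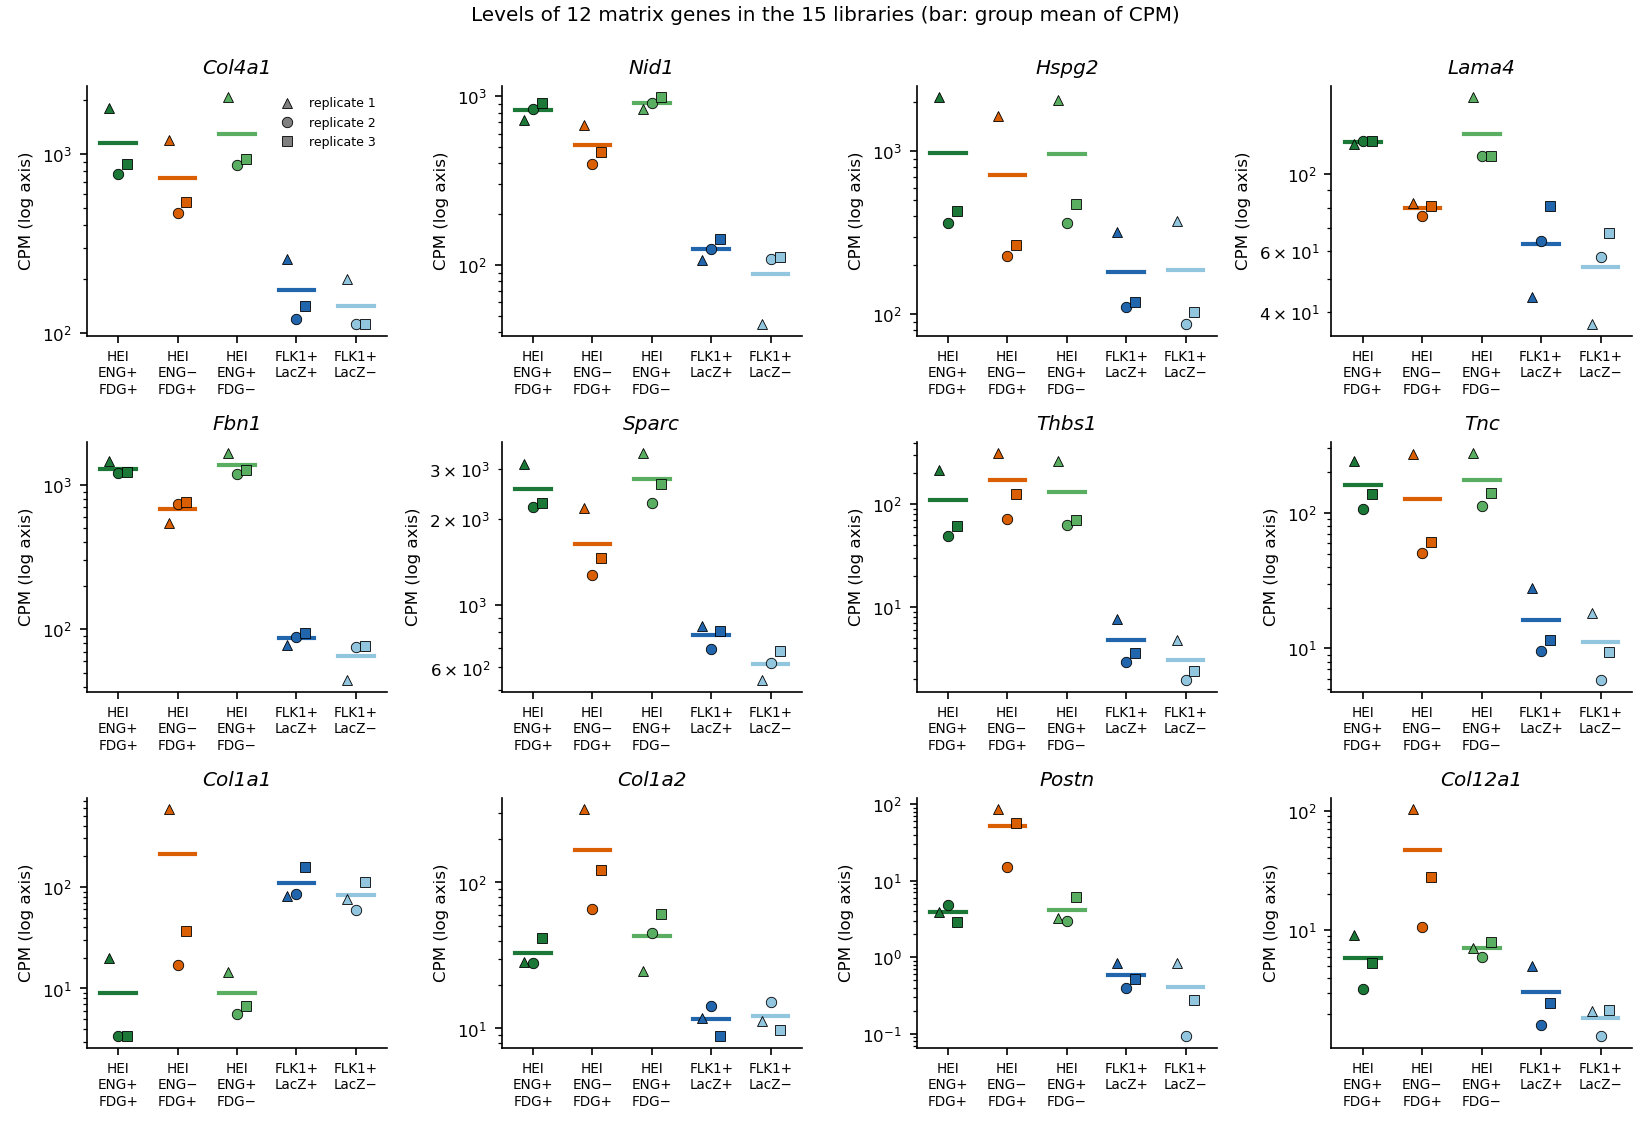
CPM on a log axis (y) of 12 matrix genes in the 15 libraries, by sorted group (x) and replicate number (symbol), with the group mean as a bar. Fbn1 lies between 548 and 1659.8 CPM in HEI libraries and between 44.2 and 94.6 CPM in FLK1+ libraries, and in the lower row Col1a1, Col1a2, Postn and Col12a1 peak in HEI ENG−FDG+ replicate 1.

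Fn1 and Vcan did not rise. Fn1 measured 5641, 4889.7 and 5136 CPM in HEI ENG+FDG+, 5879.5, 5580.4 and 5805 CPM in ENG−FDG+ and 5507, 5042 and 5651 CPM in ENG+FDG− cells, against 5651, 5636 and 4518 CPM in LacZ+ and 7119.5, 6411 and 5377 CPM in LacZ− cells. The groups overlapped throughout, and the log2 difference of −0.08 ± 0.15 did not pass (adjusted p = 0.714). Vcan, the gene of versican, a large hyaluronan-binding proteoglycan of the early heart, averaged 346 ± 62.8 CPM in HEI and 519 ± 133 CPM in FLK1+ libraries and fell by 0.59 ± 0.19 log2 (adjusted p = 0.0251), with a difference of 0.03 in replicate 1, −0.86 in replicate 2 and −0.86 in replicate 3.

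Most of the minor collagens that passed fell, at low levels. Col12a1, a FACIT collagen on type I fibrils, rose by 2.38 ± 0.48 log2 (adjusted p = 0.00176). Col8a1, a network collagen that endothelial and smooth muscle cells make, had 487 reads over the 9 HEI libraries (211, 34 and 121 in ENG−FDG+ replicates 1, 2 and 3) against 2 over the 6 FLK1+ libraries (adjusted p = 1.83e-05). Those that fell included Col9a1, a FACIT collagen of cartilage, with 2 reads in HEI against 317 in FLK1+ libraries (adjusted p = 6.69e-05), and its neighbour on chromosome 1, Col19a1, with 5 against 92 reads (adjusted p = 0.000135). Col9a3, a partner chain of Col9a1, had 79 against 402 reads (adjusted p = 2.67e-05), the FACIT collagen Col14a1 106 against 407 (adjusted p = 2.92e-05), the membrane-anchored Col13a1 58 against 293 (adjusted p = 0.000171) and Col26a1 7 against 248 (adjusted p = 8.84e-06). Of the beaded-filament collagen VI, Col6a2 fell to 11 reads in HEI against 142 in FLK1+ libraries (adjusted p = 0.000103). Col25a1 and Col23a1, membrane-anchored too, also fell (log2 difference −1.89 ± 0.44 and −1.34 ± 0.33, adjusted p = 0.00415 and 0.00664). Eln, the gene of elastin, was nearly silent in both stages, with 3 reads over the HEI libraries and 61 over the FLK1+ libraries (adjusted p = 0.000105). Col6a1, the partner chain of Col6a2, did not pass (adjusted p = 0.184) but fell with the block (adjusted p = 0.038), and a further chain, Col6a3, had too few counts to test, with 7 and 29 reads. The rest of the other class, Col7a1, Col8a2, Col10a1, Col17a1 and Col20a1, did not pass, and Col7a1 and Col8a2 fell with the block (adjusted p = 0.0123 and 0.0116). Of 84 HEI reads of Col8a2, 77 came from ENG−FDG+ replicate 1. Without that library Col8a2 fell also in the fit without the block (log2 difference −3.66, adjusted p = 0.000526, edgeR).

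Genes that fold, modify and crosslink collagen moved in both directions. Of 30 listed processing genes 29 could be tested, and 11 rose and 4 fell in HEI cells (13 and 8 with the block), where 37.3% of all genes passed without and 66.2% with the block. Pcolce2, which encodes an enhancer of procollagen C-proteinase, averaged 0.940 ± 0.512 CPM in HEI and 11.9 ± 6.12 CPM in FLK1+ libraries (log2 difference −3.64 ± 0.47, adjusted p = 5.32e-05). Leprel1, a prolyl 3-hydroxylase gene active on collagen IV, averaged 4.59 ± 4.10 CPM in HEI and 29.7 ± 11.5 CPM in FLK1+ libraries (−2.89 ± 0.36, adjusted p = 4.47e-05). Adamts3, whose protease trims procollagen and activates VEGF-C, fell as well, to 11.4 ± 10.2 CPM in HEI against 45.2 ± 11.1 CPM in FLK1+ libraries (−2.47 ± 0.26, adjusted p = 1.3e-05). Of those that rose, the crosslinking transglutaminase gene Tgm2 showed 18.9 ± 4.97 CPM in HEI and 3.90 ± 3.61 CPM in FLK1+ libraries (2.35 ± 0.44, adjusted p = 0.000902). Of 26 listed genes of matrix breakdown and its inhibitors 22 could be tested, and 4 rose and 2 fell (5 and 6 with the block), smaller shares than the 37.3% and 66.2% of all genes. Timp3, an inhibitor of metalloproteinases that binds to the matrix, averaged 239.8 ± 66.3 CPM in HEI and 30.5 ± 1.89 CPM in FLK1+ libraries (2.96 ± 0.21, adjusted p = 4.98e-07). Adamts1, a versican-cleaving protease gene, averaged 81.5 ± 35.5 CPM in HEI and 27.5 ± 6.60 CPM in FLK1+ libraries (1.55 ± 0.28, adjusted p = 0.000665). The gelatinase genes went opposite ways: Mmp2 averaged 137 ± 77.1 CPM in HEI and 58.8 ± 20.2 CPM in FLK1+ libraries (1.21 ± 0.39, adjusted p = 0.0277), and Mmp9 averaged 0.865 ± 0.648 CPM in HEI and 11.3 ± 9.29 CPM in FLK1+ libraries (−3.78 ± 0.53, adjusted p = 0.000105).

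Within the HEI cells, ENG+FDG+ and ENG−FDG+ cells share the active reporter and differ in the surface protein. Of 55 members 1, Postn, passed in the fit without the block, where 0.278% of all genes passed. Postn measured 3.90, 4.76 and 2.88 CPM in ENG+FDG+ cells, against 85.4, 15.1 and 56.3 CPM in ENG−FDG+ cells. It measured 3.28, 3.0 and 6.06 CPM in ENG+FDG− cells, 0.830, 0.400 and 0.513 CPM in FLK1+ LacZ+ cells and 0.841, 0.0923 and 0.278 CPM in LacZ− cells, so the 3 ENG−FDG+ libraries were the highest of all 15. Postn fell by 3.76 ± 0.68 log2 in ENG+FDG+ against ENG−FDG+ cells (adjusted p = 0.0436), with differences of −3.51 ± 0.49 with the block (adjusted p = 0.000841) and −2.95 in replicates 2 and 3 alone (adjusted p = 0.00928). Its call in the fit without the block was kept only when the library left out was ENG−FDG+ replicate 2, LacZ+ replicate 1 or LacZ− replicate 1, and the other 12 libraries each ended it (adjusted p 0.0549 to 0.226, log2 difference −3.93 to −3.20).

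With the replicate number as a block, 13 of 55 members passed, 5 higher and 8 lower in ENG+FDG+ cells, where 10.8% of all genes passed (5.1% higher, 5.75% lower). All 13 kept 1 direction in the 3 same-numbered pairs. The fit that chose them favours such genes, so this is a description and no further support. Replicates 2 and 3 alone, with the block, gave 26 of 53 members (18 higher, 8 lower) where 31% of all genes passed (15.5% in each direction), and 12 of the 13 were among them with the same sign. These are part of the same libraries, so the overlap is not independent. The classes leaned in opposite ways: the median log2 difference was 0.45 over 19 basement membrane genes and −1.23 over 10 fibrillar collagens, where all genes had a median of −0.04.

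Fibrillar chains and Col12a1 and Col8a1 fell in ENG+FDG+ cells, with 3 of 10 fibrillar genes past the threshold with the block, where 10.8% of all genes passed. Col1a1, whose values stand above, differed by −4.05 ± 0.98 (adjusted p = 0.0247 with the block, 0.147 without), and by −4.85, −2.26 and −3.38 in the pairs of replicates 1, 2 and 3. Col1a2 fell by 2.31 ± 0.50 (adjusted p = 0.0117), the difference being −1.34 in replicates 2 and 3 alone (adjusted p = 0.0697). Without ENG−FDG+ replicate 2, Col1a2 passed also in the fit without the block (−2.73, adjusted p = 0.0435). Col5a1 measured 40.2, 9.81 and 11.7 CPM in ENG+FDG+ cells, against 239.9, 18.0 and 37.7 CPM in ENG−FDG+ cells, and differed by −1.89 ± 0.43 (adjusted p = 0.0163). Col12a1 measured 9.11, 3.24 and 5.27 CPM in ENG+FDG+ cells, against 102, 10.6 and 27.6 CPM in ENG−FDG+ cells, and 7.10, 5.99 and 7.97 CPM in ENG+FDG− cells (−2.71 ± 0.43, adjusted p = 0.00164). Col8a1 measured 1.63, 1.14 and 1.19 CPM in ENG+FDG+ cells, against 17.9, 3.27 and 10.3 CPM in ENG−FDG+ cells (−2.85 ± 0.60, adjusted p = 0.00914). In each of these genes the largest ENG−FDG+ value was that of replicate 1, and ENG−FDG+ replicate 2 was the lowest of its group. Thbs1 also fell (−0.70 ± 0.16, adjusted p = 0.0143). In replicates 2 and 3 alone Col1a1 (−2.88, adjusted p = 9.19e-09) and Col5a1 (−1.29, adjusted p = 0.0172) still fell, and Col5a2 rose (0.77, adjusted p = 1.83e-05). There the differences were −2.05 for Col12a1 (adjusted p = 7.39e-07), −2.37 for Col8a1 (adjusted p = 0.000216) and −0.75 for Thbs1 (adjusted p = 6.05e-05).

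Some markers of smooth muscle and mesenchyme fell with these genes. Of 10 listed, 9 could be tested, and 4 fell in ENG+FDG+ against ENG−FDG+ cells with the block, where 5.75% of all genes fell. None of the 9 rose with the block, and none passed without it. In ENG−FDG+ against ENG+FDG− cells 1 of the 9 was higher with the block and none without it. Twist1 lay the other way, with 9.76, 8.28 and 7.25 CPM in ENG+FDG+ cells, against 9.59, 5.67 and 5.197 CPM in ENG−FDG+ cells. Foxf1 was higher in ENG+FDG+ cells in replicates 2 and 3 and lower in replicate 1. The sum over the 10 was 542, 94.9 and 121 CPM in ENG+FDG+ cells, against 4172, 261 and 565 CPM in ENG−FDG+ cells. It was 440, 219 and 216 CPM in ENG+FDG− cells. Acta2, smooth muscle actin, made up most of it, with 410.4, 54.9 and 76.3 CPM in ENG+FDG+ and 3602, 202 and 477 CPM in ENG−FDG+ cells, while Tcf21 was at 0 in the ENG−FDG+ and Prrx1 in the ENG+FDG+ libraries. Haematopoietic markers (10 genes) summed to 87.1 to 135 CPM in ENG+FDG+ cells, against 480 to 542 CPM in ENG−FDG+ cells. Of the 8 tested, 7 fell in ENG+FDG+ against ENG−FDG+ cells with the block and 1 without it (median log2 difference −2.79 with the block). In ENG−FDG+ against ENG+FDG− cells 7 of the 8 were higher with the block and 3 without it. Of 8 cardiac markers, 2 fell in ENG+FDG+ against ENG−FDG+ cells with the block and 1 without it, and 0 rose. The part of other cell types in the collagen differences was not tested. Of 29 processing genes tested, 1 rose and 2 fell with the block, where 10.8% of all genes passed, and 1 fell without it. Of 22 tested genes of matrix breakdown, 1 rose and 2 fell with the block and 0 passed without it. Among the processing genes Adamts3 passed in both fits, with 4.58 ± 2.4 CPM in ENG+FDG+ cells, against 24.8 ± 1.11 CPM in ENG−FDG+ cells (log2 difference −2.44 ± 0.43, adjusted p = 0.0436 without the block).

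In the basement membrane class 2 of 19 genes rose and 1 fell with the block, 15.8% together, where 10.8% of all genes passed. Col4a1 rose by 0.67 ± 0.10 log2 in ENG+FDG+ against ENG−FDG+ cells (adjusted p = 0.00132) and Col4a2 by 0.68 ± 0.11 (adjusted p = 0.00204). Neither passed without the block (adjusted p = 0.86 and 0.917), and the pair differences of Col4a1 were 0.60, 0.72 and 0.71. Fbn1 rose by 0.94 ± 0.20 (adjusted p = 0.00911) and Sparc by 0.65 ± 0.16 (adjusted p = 0.0177), and for both every ENG+FDG+ library was above every ENG−FDG+ library. Nid1 and Lama4 showed the same order of libraries with differences of 0.66 ± 0.27 and 0.63 ± 0.22 that did not pass (adjusted p = 0.131 and 0.084), though both passed in replicates 2 and 3 alone (adjusted p = 3.09e-11 and 1.02e-06). An exception was Lama1, which was lower, with 15.2, 18.7 and 14.9 CPM in ENG+FDG+ cells, against 108, 22.2 and 29.5 CPM in ENG−FDG+ cells (−1.58 ± 0.43, adjusted p = 0.0343), and −0.57 in replicates 2 and 3 alone (adjusted p = 0.00792). Col13a1, a membrane-anchored collagen, had 29 reads in ENG+FDG+ against 3 in ENG−FDG+ cells and rose as well (adjusted p = 0.0453). In replicates 2 and 3 alone 12 of 18 basement membrane genes rose and 2 fell, where 15.5% of all genes passed in each direction.

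Markers of other cell types moved with these genes too. With the block, 6 of 10 endothelial markers rose in ENG+FDG+ against ENG−FDG+ cells and none fell (median log2 difference 1.02), where 5.1% of all genes rose. The sum over the 10 was 4488 to 6331 CPM in ENG+FDG+ cells, against 2588 to 2728 CPM in ENG−FDG+ cells. The 10 include Eng, whose protein was used to sort these cells, so Eng gives no separate evidence of cell type. Of the 9 extraembryonic endoderm markers tested 5 rose and none fell (median 1.32), and the sum over the 15 listed was 568 to 761 CPM in ENG+FDG+ cells, against 263 to 428 CPM in ENG−FDG+ cells. Its largest parts in ENG+FDG+ cells were Sox7 (212, 191 and 195 CPM), Gata4 (203, 91.7 and 90.8 CPM) and Dab2 (155, 142 and 165 CPM). Afp and Ttr were at 0 in the ENG+FDG+ libraries, and Ttr, Apoa1, Amn and Hnf4a in the ENG−FDG+ libraries. Without the block neither list had a marker past the threshold. Their part in the differences of Col4a1, Col4a2, Fbn1 and Sparc was not tested.

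**Figure D5:**
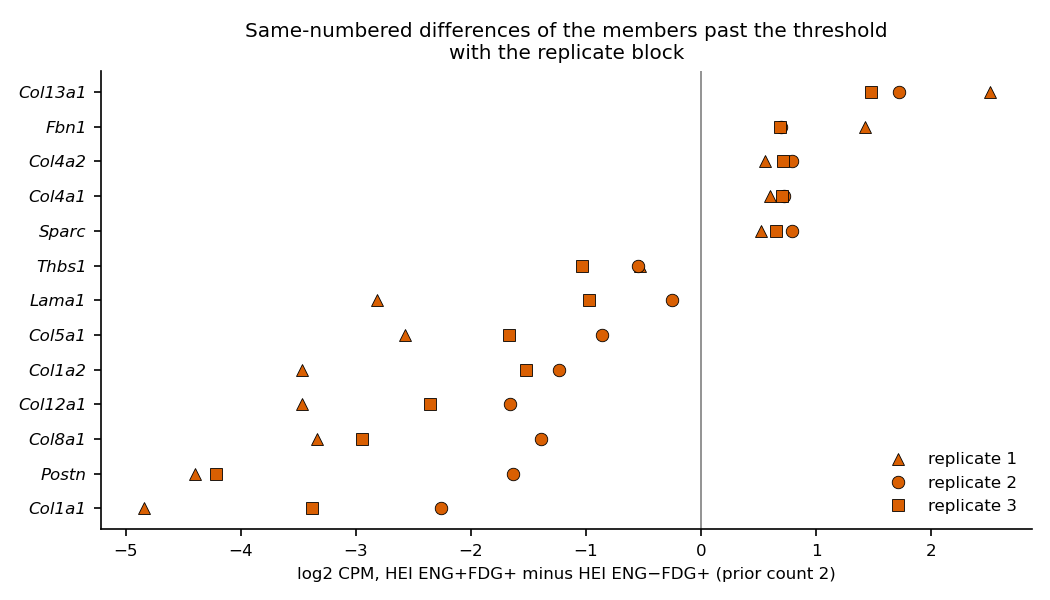
Log2 CPM of HEI ENG+FDG+ minus HEI ENG−FDG+ cells (x axis, prior count of 2) in each pair of libraries with the same replicate number (symbol), for the 13 members past the threshold with the replicate block. The Col4a1, Col4a2, Sparc, Fbn1 and Col13a1 points lie to the right of 0 in all 3 pairs, and those of the other 8 genes to the left. The 13 were chosen by a fit to these same libraries, so their shared direction is no separate support.

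The comparison of ENG−FDG+ with ENG+FDG− cells uses the same ENG−FDG+ libraries, so its values are given beside the foregoing and not as independent evidence. Here too 1 of 55 members, Postn, passed without the block (3.67 ± 0.67, adjusted p = 0.0453), where 0.351% of all genes passed, and the same 12 libraries each ended the call (adjusted p 0.0538 to 0.2). With the block 13 passed, 7 higher and 6 lower in ENG−FDG+ cells, against 11.1% of all genes (5.44% higher, 5.65% lower). Higher were Postn (3.50 ± 0.48), Col1a1 (3.82 ± 0.99), Col1a2 (1.89 ± 0.49), Col12a1 (2.28 ± 0.42), Col8a1 (2.29 ± 0.59), and at low counts Col2a1 and Col11a2. Lower were Col4a1 (−0.82 ± 0.10), Col4a2 (−0.81 ± 0.11), Fbn1 (−1.03 ± 0.20), Sparc (−0.77 ± 0.16), Tnc (−0.73 ± 0.21) and Col14a1. Their adjusted p ran from 0.000386 for Col4a1 to 0.0455 for Col14a1 (edgeR). In replicates 2 and 3 alone Col1a2 no longer passed (0.78, adjusted p = 0.225), nor did Col2a1 or Col14a1, and Col11a2 was not tested there. Taking the 3 HEI groups together, 1 member differed among them without the block (0.322% of all genes) and 14 with it (9.65%), and 28 of 53 did in replicates 2 and 3 with the block (32.2%).

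Among ENG+ HEI cells, FDG+ and FDG− cells differ in reporter activity. None of the 55 members passed, with or without the block, where 0% of all genes passed. At an unadjusted p of 0.05 the edgeR test gave 1 member without the block and 3 with it, where 0.285% and 1.18% of all genes were under it, and DESeq2 gave 0 after adjustment. Vcan measured 316, 304 and 301 CPM in ENG+FDG+ cells, against 330.1, 411 and 408 CPM in ENG+FDG− cells, without overlap (−0.32 ± 0.30, adjusted p = 1), and was the 1 member that fell in replicates 2 and 3 alone (−0.41, adjusted p = 0.0291, where 0.961% of all genes passed). Lamc1 measured 362, 237 and 259 CPM in ENG+FDG+ cells, against 386, 287 and 311 CPM in ENG+FDG− cells, a difference of −0.20 ± 0.25. The differences of Col4a1 (−0.16 ± 0.50), Col1a2 (−0.40 ± 0.49), Col5a1 (−0.15 ± 0.92) and Thbs1 (−0.27 ± 0.73) were likewise within their error.

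In FLK1+ cells the comparison of LacZ+ with LacZ− gave no member past the threshold in either fit (0% of all genes), and DESeq2 gave 0 as well. At an unadjusted p of 0.05 there was 1 member without the block (1.24% of all genes) and there were 9 with it (4.54% of all genes). Fbn2 measured 170.3, 176 and 212 CPM in LacZ+ cells, against 104, 136 and 158 CPM in LacZ− cells, each LacZ+ library above each LacZ− library (0.49 ± 0.20, adjusted p = 1), and it rose in replicates 2 and 3 alone (0.39, adjusted p = 0.0166, where 0.24% of all genes passed). Col18a1 differed by 1.36 ± 0.91, with 184 CPM in LacZ+ replicate 1 against 55.2 CPM in LacZ− replicate 1. Nid1 (0.50 ± 0.32), Tnc (0.55 ± 0.68), Col1a1 (0.39 ± 1.03) and Col27a1 (−0.55 ± 0.55) differed by less than 2 standard errors. Without LacZ+ replicate 1 the difference of Col18a1 was −0.17 and that of Tnc −0.08. The difference between the reporter effect in ENG+ HEI cells and that in FLK1+ cells passed for none of the 55 members, with an unadjusted p under 0.05 for 0 without the block (0.71% of all genes) and 8 with it (3.51%), and for none with DESeq2 after adjustment (0% of all genes in edgeR).

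The 15 members that were not tested had between 1 and 95 reads over all 15 libraries. They were Col15a1, Col4a3, Col4a4 and Lamc3 of the basement membrane, Col5a3 of the fibrillar class, and Col16a1, Col22a1, Col28a1, Col6a3, Col6a4, Col6a5, Col6a6, Col9a2, Dcn and Lum. Lum and Dcn encode lumican and decorin, small proteoglycans of mature connective tissue, and lie 47 kb apart on chromosome 10. Of 31 reads of Lum, 29 came from HEI ENG−FDG+ replicate 1, as did 7 of 16 of Dcn. Col15a1, a relative of Col18a1, had 66 reads in HEI libraries, all from ENG+ cells and 40 of them from ENG+FDG− replicate 1, and 2 in FLK1+ libraries.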

How the data were processed

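RNA had been amplified with a Nugen kit and sequenced as Illumina libraries, per the labels' protocols. The deposited table holds raw read counts per gene symbol for 15 libraries. The submitters' processing notes name STAR 2.4.0, HTSeq 0.6.1 and the build mm10, without the role of each. The sources used here do not give the annotation, strand setting or filters, so reads of overlapping genes cannot be assigned with certainty. Of 24061 lines, 27 whose symbol had become a date were dropped.

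Genes with enough counts for a test (filterByExpr, 13662) were fitted in edgeR 4.0.16 (R 4.3.3, limma 3.58.1) with a robust quasi-likelihood model of 5 groups over 15 libraries, TMM scaling and Benjamini-Hochberg adjustment over all genes tested at a threshold of 0.05. CPM are TMM-scaled. Folds and log2 differences were computed from this fit, and levels per kb used merged exons of GENCODE M21 (GRCm38). Same-numbered libraries deviated together from their group means (r = 0.43 to 0.87 between groups). For other numbers r ran from −0.76 to 0.64, so the ranges overlapped and do not establish a pairing of the libraries. The labels do not say what a number stands for, and the HEI and FLK1+ libraries came from different lines. The block by number therefore assumes a pairing that was not shown. Values with the block are given where they change a call. The typical biological coefficient of variation was 0.477 without the block and 0.199 with it. Alternatives were RLE scaling, no filter, a filter of 5 CPM in 3 libraries, DESeq2 1.42.0, only the groups compared, and leaving out libraries or numbers. The fit without the block was tried on simulated counts for LacZ+ against LacZ− FLK1+ cells, with no shift of replicate 1. The fits with the block were not tried in this way.

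Members, gene lists and tests were chosen with earlier results of these data known. Libraries' values are given for at most 4 called members per class and comparison, by size of difference among those with at least 10 CPM, for the 3 highest levels per class, and for partners of these, with further members named by their counts after their values were seen. Differences of genes with 3 reads or fewer in a group are given as reads. Promoters are from RefSeq (GRCm38.p6). 48 of 70 members had a promoter window. Of the tested members, 1 is counted in the totals and is not reported here on its own.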

Additional observations from a re-analysis of the deposited data

How the results depend on the processing

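In HEI against FLK1+ cells the count of 34 members stayed within 1.5 times under every alternative run: 42 with the replicate block, 34 with RLE scaling, 35 with no filter, 26 of 38 tested at 5 CPM, 34 in DESeq2, 34 with only the groups compared, 44 in replicates 2 and 3 with the block, and 24 to 43 with a library or number left out. The comparisons within HEI cells depended on the setting, and all counts with the block rest on the assumed pairing by replicate number. For ENG+FDG+ against ENG−FDG+ cells the count of 1 became 13 with the block, 26 in replicates 2 and 3 with the block, 8 in DESeq2, 0 with no filter or with only the groups compared, and 0 to 22 with a library or number left out. For ENG−FDG+ against ENG+FDG− cells it became 13, 23, 11, 0, 0 and 0 to 20 in the same order, and for any difference among the HEI groups 14 with the block, 28 in replicates 2 and 3 with it, 6 in DESeq2, 0 with only the groups compared and 0 to 23 with a library or number left out. In both pairwise comparisons the highest count came without replicate 1. Without replicates 2 or 3 Postn was no longer called in either (ENG+FDG+ against ENG−FDG+, −4.37 and −3.53). The cause was not tested. In the comparisons by FDG and by LacZ, 0 members became 1 each in replicates 2 and 3 with the block.

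The differences that changed sign had missed the threshold in all settings named here. For ENG+FDG+ against ENG+FDG− cells, leaving out a library or number gave log2 differences of −0.64 to 0.36 for Col4a1, −1.08 to 0.20 for Col5a1 and −1.25 to 0.72 for Thbs1. For LacZ+ against LacZ− cells they ran from −0.17 to 2.06 for Col18a1 and from −0.084 to 1.10 for Tnc, the lowest in both without LacZ+ replicate 1. For Col1a1 in HEI against FLK1+ cells, −1.64 without replicate 2 and −1.19 without replicate 3 missed the threshold (adjusted p = 0.181 and 0.398, edgeR). With the longest transcript as length, the order of Fn1 (672 CPM per kb) and Sparc (727 CPM per kb) was turned round. Depth limits the 15 untested members, none of which exceeded 68 reads in a library, and with 3 libraries a group and replicate 1 apart, a difference that missed the threshold is not shown to be absent.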
